A study of Mus musculus with 2 samples.

Results

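The E2F transcription factors and their DP dimerization partners were described in uterine stromal cells of pregnant C57BL/6 mice, in a control array and an Msx1Msx2-null array. The members were the 10 genes E2f1 to E2f8, Tfdp1 and Tfdp2, out of 18193 genes with their own probe sets on the array. All 21 probe sets annotated to a single one of these symbols were used. The genes were put together because E2f7 and E2f8 were already known to be higher in the null array, so their values are given as a description and support no test.

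Stromal cells were isolated on day 4 of pregnancy, shortly before the mouse blastocyst implants. The control group was floxed for Msx1 and Msx2, which encode homeobox transcription factors, and the other group had both genes ablated in the uterus through PRcre. PRcre expresses Cre recombinase from the progesterone receptor locus, which is active in uterine epithelium and muscle as well as stroma, and the labels do not say whether the controls carried it. RNA of several mice was pooled for each genotype, 5 mice per genotype by the design text and the treatment protocol and 4 by the extraction protocol. There was 1 array per genotype, so no value below has a replicate error and no p-value was computed. A difference can come from the genotype, the mice in the pool or the hybridization, and these cannot be told apart.

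E2F proteins bind the promoters of genes needed for DNA replication and cell division. E2F1 to E2F3 activate these genes when cyclin-dependent kinases release them from the retinoblastoma family of pocket proteins. E2F4 and E2F5 mainly repress them together with pocket proteins in resting cells, and E2F6 represses through Polycomb proteins. E2F1 to E2F6 bind DNA as dimers with a DP protein. E2F7 and E2F8 carry a pair of DNA-binding domains, need no DP partner, and repress E2F targets late in S phase, and their own genes are E2F targets. In the mouse they are known for their part in polyploidization of liver and trophoblast giant cells. On day 4 of pregnancy uterine stromal cells normally proliferate under progesterone, and some later become polyploid decidual cells.

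The promoters of E2f7 and E2f8, the members that differed most, and the outermost promoter of the activator E2f2 are printed below. They are from RefSeq, build GRCm38.p6, in the direction of transcription. Each runs from 250 bases before to 50 bases after an annotated start. Capitals mark matches to the E2F motifs TTTCCCGC, TTTCGCGC, TTTGCCGC and TTTGGCGC, or to the CHR motifs TTTGAA and TTTAAA, searched on both strands. CHR, the cell cycle genes homology region, is bound by the MuvB complex. The E2f7 window is chr10:110745189-110745488, plus strand, and its E2F match lies on the opposite strand. The E2f8 window is chr7:48881547-48881846, minus strand, and its match is a CHR motif on the opposite strand. The E2f2 window is chr4:136172024-136172323, plus strand, and its match is an E2F motif.
E2f7: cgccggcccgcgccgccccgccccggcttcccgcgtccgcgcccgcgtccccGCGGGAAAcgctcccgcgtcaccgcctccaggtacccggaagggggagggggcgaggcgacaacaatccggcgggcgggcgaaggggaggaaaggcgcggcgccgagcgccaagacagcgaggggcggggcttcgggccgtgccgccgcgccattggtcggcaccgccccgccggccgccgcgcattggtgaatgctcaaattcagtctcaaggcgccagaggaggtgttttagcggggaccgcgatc
E2f8: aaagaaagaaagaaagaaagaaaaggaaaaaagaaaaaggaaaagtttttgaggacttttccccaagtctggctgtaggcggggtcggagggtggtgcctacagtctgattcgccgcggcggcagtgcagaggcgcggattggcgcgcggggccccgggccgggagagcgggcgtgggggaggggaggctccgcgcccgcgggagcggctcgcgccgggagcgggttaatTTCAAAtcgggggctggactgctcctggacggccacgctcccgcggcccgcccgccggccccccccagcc
E2f2: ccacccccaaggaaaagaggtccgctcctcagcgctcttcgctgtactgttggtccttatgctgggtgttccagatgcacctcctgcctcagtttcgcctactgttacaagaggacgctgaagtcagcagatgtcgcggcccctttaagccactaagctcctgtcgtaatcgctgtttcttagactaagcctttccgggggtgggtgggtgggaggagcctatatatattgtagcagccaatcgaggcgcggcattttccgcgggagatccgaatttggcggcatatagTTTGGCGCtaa

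The E2f7 match ran from base -198 to -191 relative to the start, the E2f8 match from -20 to -15, and the E2f2 match from 40 to 47, where base 1 is the first transcribed base. The promoter table held 12 promoters of 8 members; those of E2f4 and E2f5 were not analysed here. An E2F motif was found in 5 of the 12 (41.7%), belonging to E2f2, E2f3, E2f7 and Tfdp1, against 2.26% of all 32851 promoters of the same length. The Tfdp1 windows overlap and hold the same site, which is counted in each. A CHR motif was found in 5 of the 12 (41.7%), belonging to E2f2, E2f3, E2f8 and Tfdp2, against 27.6% of all promoters. The E2f2 CHR match lies in its other promoter, not printed above, which holds no E2F match. The median GC content was 67.3% in the member promoters and 52.7% in all promoters. These matches describe the letters and are no evidence of binding. Several starts lay inside the outermost annotated gene boundary. The distance was 466 bases for E2f1, 477 for E2f8, 1673 for a start of E2f3 and 8508 for a start of E2f2. The other starts of E2f3 and E2f2 lay 1 and 0 bases inside, so the outer promoters of these genes were searched. For E2f1, E2f8 and Tfdp2, promoter sequence at any start further out was not searched. Both Tfdp2 starts lay deepest, 62459 and 63002 bases inside.

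**Figure D1:**
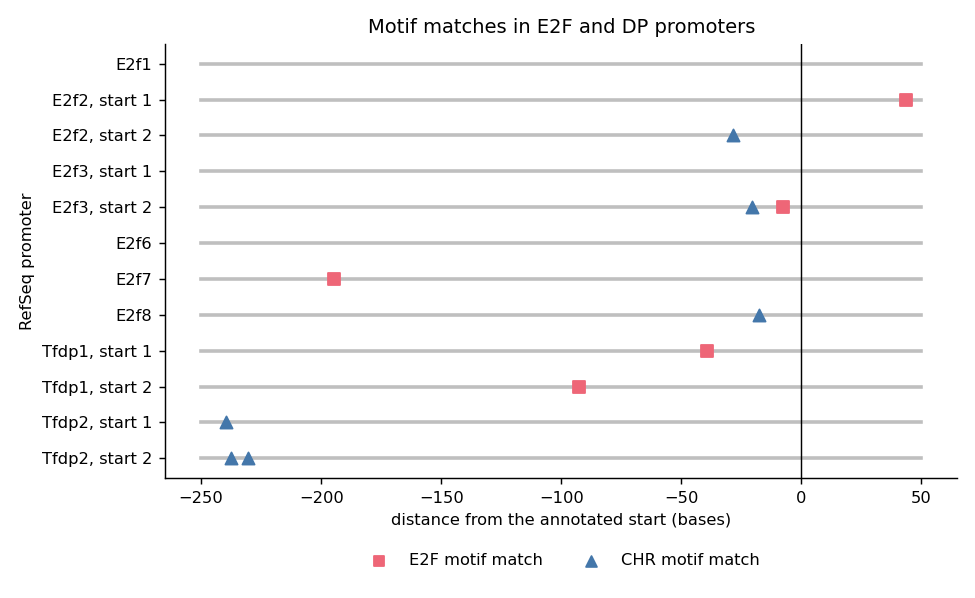
Positions of E2F motif matches (squares) and CHR motif matches (triangles) in the 12 RefSeq promoters of 8 members, with the distance from the annotated start in bases on the x axis and grey lines for the windows searched. The E2f7 square lies far upstream at -198 to -191, whereas the E2f8 triangle lies at -20 to -15.

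The atypical repressors were the members with the largest differences, and both were higher in the null array. E2f8 had a MAS5 signal, in linear intensity units, of 78.8 in control cells and 306 in null cells on probe set 1436186_at, 3.88-fold higher. E2f7 had 61.1 in control and 129 in null cells on probe set 1437187_at, 2.11-fold higher. On the log2 scale, null minus control, these are differences of 1.96 for E2f8 and 1.08 for E2f7. Among 11833 genes used, 29 had a ratio at least as high as E2f8, itself included, and 137 one at least as high as E2f7.

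As a gauge of measurement noise, the brightest and next brightest probe set were compared in 4690 genes that had a pair above the floor. The SD of the log2 ratio from 1 probe set, taken from these pairs, was 0.27, and 0.32 in the dimmest tertile. The E2f8 and E2f7 differences were 7.16 and 3.95 times the overall SD. Both genes were chosen for their high ratios, so these multiples describe size and test nothing. The SD leaves out any variation between mice, RNA pools and arrays. E2f7 had no second probe set, and the second one of E2f8, 1444319_at, read 0.483 and 1.16 and measured nothing usable. Each of these differences therefore rests on 1 probe set.

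**Figure D2:**
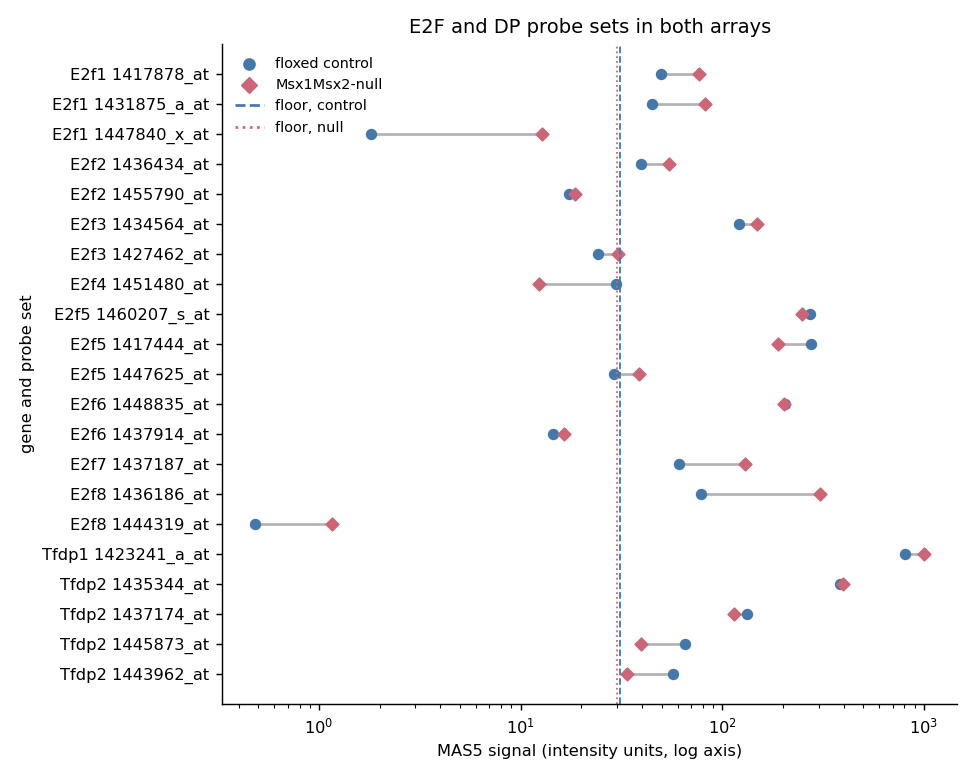
MAS5 signal (log axis) of the 21 E2F and DP probe sets in the floxed control array (circles) and the Msx1Msx2-null array (diamonds), with the detection floor of each array as a vertical line. The diamond lies furthest to the right of its circle, among probe sets above the floor, for E2f8 1436186_at (78.8 to 306).

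A floor stood in for detection calls at the 50th percentile of all probe sets, which was 31.0 for control and 30.1 for null cells. Of the 21 member probe sets 14 were above it in both arrays, 2 in the null array only and 5 in neither. By their brightest probe set 9 of the 10 genes exceeded the floor in each array, and E2f4 exceeded it in neither. Of these 9 genes 2 were at least 2-fold higher, E2f7 and E2f8, against 1.59% of all genes used, and 0 were at least 2-fold lower, against 1.8%. Because the genes were chosen from this contrast, nothing is read from the first share. The first gene short of 2-fold was E2f1. The median log2 ratio of the 9 genes was 0.32, where that of all genes used was 0.02, and 7 of the 9 ratios were positive, where 52.3% of all genes used had a positive ratio. The 7 include E2f7 and E2f8, chosen for high ratios, and Tfdp2, whose probe sets disagreed in direction. With the median over probe sets 6 of the 9 were positive.

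The activators had positive log2 ratios throughout, all smaller than those of E2f7 and E2f8. E2f1, the activator best known for driving S phase entry, went from 49.7 in control to 77.0 in null cells on probe set 1417878_at, 1.55-fold higher. Its probe set 1431875_a_at went from 44.6 to 81.9, 1.84-fold higher, so both usable probe sets had the same direction. The remaining one, 1447840_x_at, was under the floor at 1.80 and 12.7.

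E2f2, an activator of proliferating cells, had signals of 39.4 and 54.2 on probe set 1436434_at, a log2 ratio of 0.46. Both signals lay close to the floor, and the second probe set, 1455790_at, was under it at 17.3 and 18.7. E2f3, the activator that with E2f1 and E2f2 sustains proliferation, had 121 and 149 on probe set 1434564_at, a log2 ratio of 0.30 that is about the size of the probe set SD. Its other probe set, 1427462_at, read 24.3 in control cells, under the floor, and 30.3 in null cells, just above it. The activators were thus ordered E2f1, E2f2, E2f3 by ratio, and neighbours in that order differed by less than the probe set SD.

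The canonical repressors that were above the floor, E2f5 and E2f6, had log2 ratios near or below 0 on their brightest probe sets. E2f5, a pocket protein-bound repressor, was measured by a pair of bright probe sets with lower signals in the null array. Probe set 1460207_s_at read 273 and 247 (log2 ratio -0.14), and 1417444_at read 276 and 189 (-0.55). A dim additional probe set, 1447625_at, went the other way, from 29.1 to 38.6. E2f6, the Polycomb-associated repressor, had nearly the same signal in both arrays, 205 and 202 on probe set 1448835_at, a log2 ratio of -0.02. Its second probe set, 1437914_at, was under the floor at 14.5 and 16.4.

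E2f4, the main pocket protein-bound E2F of resting cells, was represented by 1 probe set, 1451480_at, with signals of 29.7 in control and 12.3 in null cells. Both were under the floor, so no ratio is given. A signal under the floor does not show that the gene was silent.

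The DP partners differed little on their brightest probe sets. Tfdp1, the main DP partner, had 803 in control and 1001 in null cells on probe set 1423241_a_at, a log2 ratio of 0.32. Tfdp2 had 383 and 398 on its brightest probe set, 1435344_at, a log2 ratio of 0.06. The other Tfdp2 probe sets were all lower in the null array, 1437174_at from 133 to 115, 1445873_at from 65.6 to 39.5 and 1443962_at from 56.7 to 33.7. Their log2 ratios were -0.22, -0.73 and -0.75. The probe sets of Tfdp2 thus disagreed in direction, and the gene has no settled direction in these arrays. Where these probe sets lie in the transcript is not stated in the labels.

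**Figure D3:**
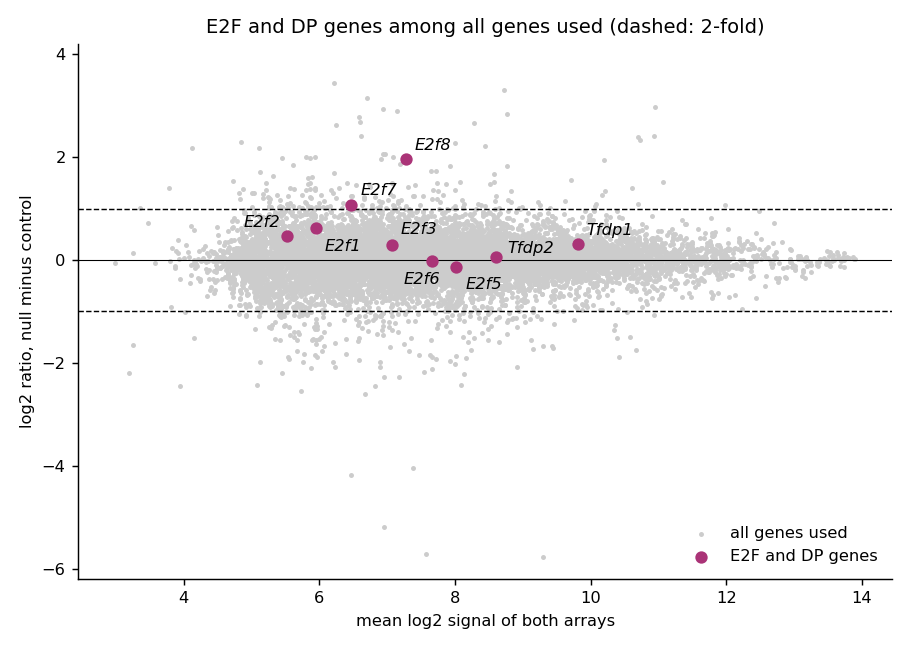
Log2 ratio, null minus control, against the mean log2 signal of both arrays for the 11833 genes used (grey) and the 9 E2F and DP genes above the floor (coloured, named), each by its brightest probe set. Among the named genes E2f8 (1.96) and E2f7 (1.08) lie above the upper dashed line, which marks 2-fold.

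The pocket proteins, which bind and silence E2Fs, were mixed. Rbl1 encodes p107 and is itself an E2F target. It went from 241 to 345, a log2 ratio of 0.52. Rb1, the retinoblastoma gene, had 321 and 282 (-0.19), and Rbl2, which encodes the p130 of resting cells, had 466 and 356 (-0.39). None of the 3 passed 2-fold.

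The MuvB complex represses cell cycle genes with p130 and E2F4 in resting cells and activates them with B-Myb and FoxM1 in dividing cells. All 7 of its listed genes were used, with a median of 0.30, and 6 had positive ratios, against 52.3% of all genes used. None passed 2-fold, where 1.59% of all genes used were higher and 1.8% lower by that size. The DNA-binding subunit gene Lin54 had 84.5 and 150 (0.83), and the subunit gene Lin9 had 46.3 and 77.0 (0.73). Lin37 had 105 and 85.3 (-0.30), and Rbbp4, a histone-binding subunit also found in other complexes, had 3181 and 3887 (0.29) with another probe set of opposite sign. Lin52 exceeded the floor only in null cells, at 19.9 and 41.6, and so did Mybl2, which encodes B-Myb, at 29.5 and 34.7. Foxm1, the activator of mitotic genes, had 49.5 and 61.1 (0.30), and its other usable probe set had the opposite sign.

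Partners of E2F6 in Polycomb repressive complexes had log2 ratios of both signs. Of 9 genes used, 4 were positive and 5 negative, and the 8 above the floor in both arrays were within 1.5-fold. The E-box-binding proteins Mga and Max had -0.15 and -0.16. The Polycomb RING finger genes Pcgf6, Rnf2 and Ring1 had 0.15, 0.14 and -0.26, and Pcgf6 had another usable probe set of opposite sign. L3mbtl2, a chromatin-binding subunit, had 0.02, Yaf2 -0.41 and the WD-repeat gene Wdr5 0.26, again with another probe set of opposite sign. Cbx3, a heterochromatin protein gene, read 40.1 in control and 8.88, under the floor, in null cells on a dim probe set, at least 1.33-fold lower. All 8 listed germline genes that E2F6 complexes keep silent in somatic cells were under the floor in both arrays. These were the meiotic cohesin genes Stag3 and Smc1b, Slc25a31, Tuba3b, Mael, Ddx4, Taf7l and Hormad1, and the highest of their signals were those of Stag3, 13.9 and 22.8.

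Upstream of E2F, both cyclin E genes were higher in the null array, while the cyclin D genes had ratios of both signs. Ccne1, the cyclin that with CDK2 completes pocket protein phosphorylation and is an E2F target, went from 88.7 to 180, 2.02-fold higher. Ccne2 had 78.3 and 151 (0.95), and their kinase Cdk2 had 302 and 445 (0.56). The D-type cyclins, which start that phosphorylation, had -0.12 for Ccnd1, -0.42 for Ccnd2 and 0.36 for Ccnd3, and their kinases had 0.41 for Cdk4 and -0.46 for Cdk6. The other probe sets of Ccnd1 included 1 of opposite sign. Of these 8 genes 1 was at least 2-fold higher, against 1.59% of all genes used.

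Of the inhibitors of these kinases, 6 were used, 3 with positive and 3 with negative log2 ratios, and the 5 above the floor in both arrays were within 1.5-fold. The Cip/Kip genes Cdkn1a, Cdkn1b and Cdkn1c had -0.28, -0.27 and -0.45, with another probe set of opposite sign for Cdkn1a. The INK4 genes Cdkn2c and Cdkn2d had 0.24 and 0.16, Cdkn2b was under the floor at 24.2 in control and read 37.6 in null cells, at least 1.21-fold higher, and Cdkn2a was under the floor in both arrays.

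Of 5 genes that control the turnover or activity of E2F proteins, 4 had positive log2 ratios, against 52.3% of all genes used. At least 1.5-fold higher were 4 and at least 2-fold higher 1, against 6.79% and 1.59% of all genes used. Ccnf, which encodes the ubiquitin ligase subunit cyclin F, was under the floor at 23.3 in control and read 74.5 in null cells, at least 2.40-fold higher. Skp2, the F-box protein of S phase, had 172 and 305 (0.83), with all 5 usable probe sets in the same direction. Ccna2, the cyclin whose kinase ends E2F1 binding to DNA, had 446 and 828 (0.89) and is also among the G1/S targets below. Fbxo5, which encodes the inhibitor Emi1 of the anaphase-promoting complex, had 130 and 203 (0.65), while Fzr1, the activator of that complex in G1 phase, had 113 and 86.8 (-0.38).

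Genes activated by E2F were higher as a group. Of 36 listed G1/S targets 33 were used, 32 had positive log2 ratios and 1 a negative one (52.3% of all genes used were positive), and the median was 0.69 against 0.02 over all genes used. At least 2-fold higher were 6 (18.2%, against 1.59% of all genes), and 22 passed 1.5-fold (against 6.79%). None passed 1.5-fold in the lower direction, against 6.92% of all genes. The 6 were Uhrf1, a factor that maintains DNA methylation (308 and 669), the DNA repair gene Brca1 (97.3 and 210), the ribonucleotide reductase subunit Rrm2 (422 and 882), the replication fork gene Cdc45 (46.7 and 95.1), Ccne1, and the replicative helicase subunit Mcm6 (478 and 962). The exception in sign was Cdc25a, a phosphatase that activates CDK2, at -0.09 with another probe set of opposite sign.

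The mitotic genes bound through MuvB had a similar range. All 24 used of 25 had positive ratios, with a median of 0.81. They include Foxm1, whose other usable probe set had the opposite sign. Without _x_at, _s_at and _a_at probe sets 18 of 19 were positive. At least 2-fold higher were 5 (20.8%, against 1.59% of all genes), and 18 passed 1.5-fold (against 6.79%). The 5 were the kinetochore motor Cenpe (82.2 and 180), the spindle motor Kif20a (93.7 and 197), the proliferation marker Mki67 (746 and 1540), the kinetochore gene Cenpf (176 and 356) and the mitotic kinase Plk1 (109 and 218, at the threshold). The next highest was the cytokinesis motor Kif23 (133 and 256). That cell cycle genes were higher in the null array was known when these lists were drawn up, so their direction is not independent evidence. Because both lists were read from the same arrays as the E2F genes, they are set beside them as a description.

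Set against their targets, the E2F genes lay at different places. The 57 genes used from these lists had log2 ratios from -0.09 to 1.13, and 0 of them reached the 1.96 of E2f8. That value was 1.27 above the G1/S median and 1.15 above the G2/M median. E2f7 was exceeded or matched by 3 of the 57, and it lay 0.03 above Mki67. E2f1 was exceeded or matched by 38 of the 57, E2f2 by 42, Tfdp1 by 50 and E2f3 by 51. E2f6 was exceeded or matched by 56 and E2f5 by 57. E2f7 and E2f8 were picked for their high ratios, so their place above most of the 57 genes restates that choice. Differences between single genes under 0.27 are within the probe set SD. That SD is for the ratio of a single gene and is larger for a difference between genes, so gaps somewhat above 0.27 are not resolved either.

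**Figure D4:**
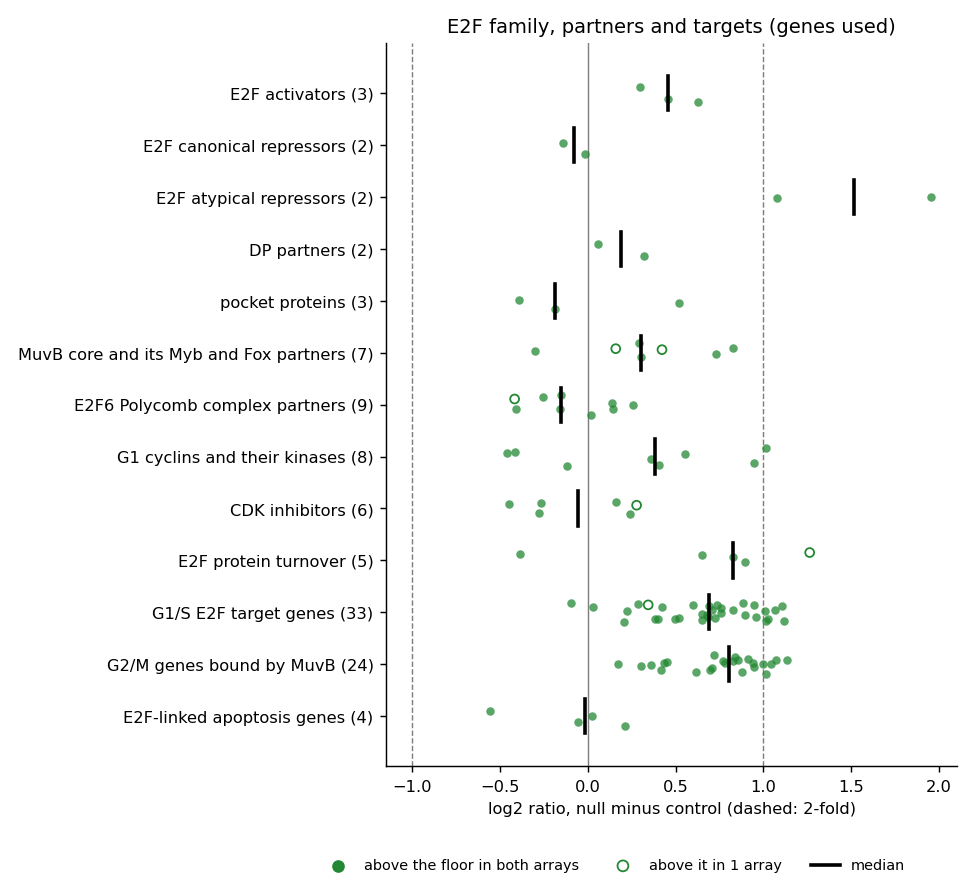
Log2 ratio, null minus control, of the genes used in each E2F-related list (points, with the number of genes in brackets; open where above the floor in 1 array) and the list median (bar). The 33 G1/S targets and 24 G2/M genes lie almost entirely to the right of 0, with medians of 0.69 and 0.81, and the atypical repressor E2f8 at 1.96 lies to the right of all points shown.

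In the promoter table an E2F motif was present in 12 of 30 promoters of the G1/S targets (40.0%) and in 1 of 20 of the mitotic genes (5.00%), against 2.26% of all promoters. A CHR motif was present in 8 of the 30 (26.7%) and in 17 of the 20 (85.0%), against 27.6% of all.

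Apoptosis genes linked to E2F1 did not show the pattern of the replication genes. Of 4 used, 2 had positive and 2 negative log2 ratios, and the median was -0.02. The caspase-activating Apaf1 had 0.21, the BH3-only genes Bbc3, Pmaip1 and Bcl2l11 had 0.02, -0.06 and -0.56, and Trp73 was under the floor in both arrays.

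By the distance between log2 signals in both arrays, the genes most like E2f8 among those above the floor were Mboat2, Gas2 and Wnt11, at log2 ratios of 1.87, 2.01 and 1.42. Those most like E2f7 were Ptprcap, Sptlc3 and Tppp, at 0.97 each. With 2 arrays such likeness covers only 2 values per gene.

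The targeted genes and the cell makeup were checked in the same arrays. Msx1 went from 1581 to 23.0 and Msx2 from 63.7 to 14.5 on their brightest probe sets, at least 52.6-fold and 2.12-fold lower. The labels do not say whether these probe sets read the deleted exons. Stromal markers were strong in both arrays, with all 11 above the floor and a median log2 ratio of 0.15. Of the 11, 8 had positive and 3 negative log2 ratios. The largest positive ratios were those of the transcription factor genes Hoxa11 (0.80) and Hand2 (0.63) and of Col1a1 (0.46). The probe sets of Hand2 disagreed in sign. The 3 lower genes were Vim (-0.32), Dcn (-0.10) and Thy1 (-0.02), and the probe sets of Dcn disagreed in sign too. The summed signal of the 11 was 59056 in control and 61523 in null cells. The ratio of 3' to 5' signal, which increases as RNA degrades, was, for Gapdh, 0.967 in control and 1.28 in null cells, and for Actb 1.80 and 2.33. The part of RNA quality in the E2F differences was not tested.

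Other cell types were present, and some of their markers moved with the E2F genes. In RNA pooled from many cells, a change in the number of cells of a type cannot be told apart from a change in RNA per cell. Of 9 natural killer and T cell markers used, 8 were higher in the null array, with a median of 0.62 and a summed signal over the list of 2122 in control and 3610 in null cells. The largest ratios were those of Cd3d (1.11, from a dim 38.1 in control cells), the granzymes Gzma and Gzmb (0.89 and 0.87), Nkg7 (0.71), Klrd1 (0.62) and Il2rb (0.61). The CD3 genes did not go together, as Cd3g was lower (95.2 and 87.8, -0.12) and Cd3e was under the floor in both arrays. Of 7 smooth muscle markers 6 were positive, at a median of 0.40, with summed signals of 9995 and 12903, and the contractile genes Cnn1 and Actg2 had the largest ratios (0.70 and 0.66).

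Macrophage and endothelial markers were lower, in 9 of 9 and 8 of 8 genes, with medians of -0.50 and -0.55. Their summed signals were 7136 and 4882 for macrophage and 3631 and 2433 for endothelial markers. The macrophage genes Fcgr3 and Mrc1 were lowest (-1.08 and -1.02), and among endothelial genes Emcn and Pecam1 (-0.89 and -0.80). Epithelial markers were present despite removal of the epithelial clumps, with 8 of 9 lower, a median of -0.25 and summed signals of 8756 and 6539. Among them the gland factor Foxa2 was 4.54-fold and the keratin Krt18 2.09-fold lower, while Krt19 was 2.05-fold higher. B cell and erythroid markers were under the floor in both arrays. Of 8 trophoblast and blastocyst markers 4 were under the floor in both arrays, Cdx2, Tfap2c, Pou5f1 and Nanog. Eomes, which natural killer cells also express, went from 71.6 to 113, and Gata3 and Elf5 exceeded the floor only in null cells, at 59.2 and 37.2. Krt8, also in the epithelial list, was the brightest of the 8 and was lower, at 2255 in control and 1703 in null cells. Which cells carried the E2f7 and E2f8 signal, and the part of the cell makeup in it, was not tested.

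**Figure D5:**
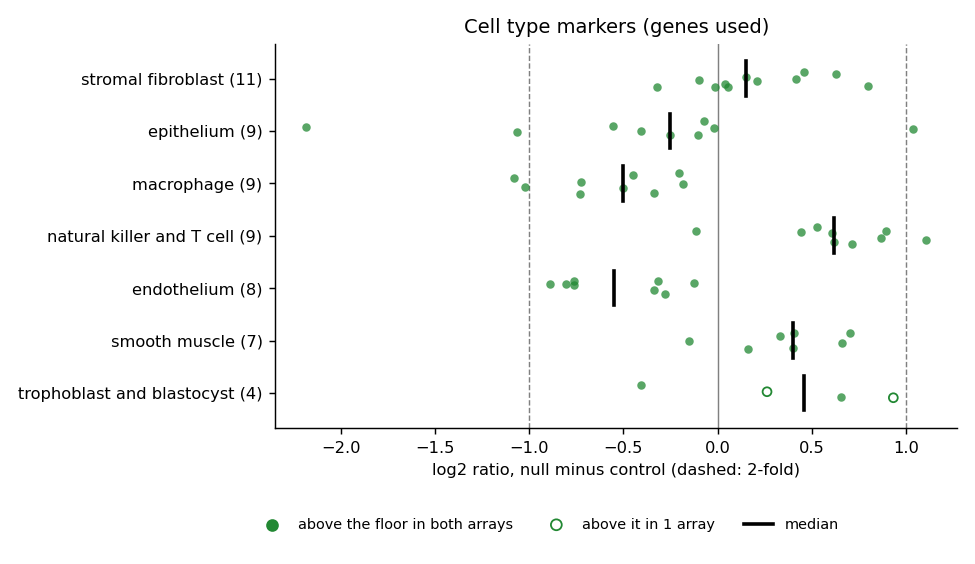
Log2 ratio, null minus control, of the marker genes used for each cell type (points, with the number of genes in brackets; open where above the floor in 1 array) and the median (bar). Natural killer and T cell markers (median 0.62) lie mostly to the right of 0, and all macrophage (median -0.50) and endothelial (median -0.55) points to the left.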

How the data were processed

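Per the submitters' processing notes, the authors made the deposited signal intensities with MAS5 in Affymetrix Expression Console 1, which gives 1 linear value per probe set and array. The mean without the highest and lowest 2% of values was 150.0 in both arrays, so they had been scaled to a common level. No scaling setting, detection call or genome build is given in the sources used here. Subtraction of mismatch signal makes MAS5 ratios of dim probe sets unstable.

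Of 45101 probe sets, 34945 carried 1 gene symbol in the platform annotation and were used; 64 were Affymetrix controls. A gene was represented by the probe set whose log2 signal, averaged over both arrays, was highest. Signals under the 50th percentile of an array were raised to that floor, which makes the fold a bound, and genes under it in both arrays were left out, leaving 11833. Genes were called by size, at 2-fold. Each group had 1 array, which limits the precision, and no test was made. The calculation was tested on simulated data in which genes brighter than E2f7 carried larger changes, so smaller changes in dim genes were not covered. The members, gene lists and thresholds were chosen with earlier results of these data known. Named genes were all members, all genes of the short lists, and up to 6 of the largest ratios in each longer or marker list. Cdc25a, Cd3g, Dcn, Thy1 and several blastocyst markers were added after their values were seen. Listed genes without a probe set of their own were not analysed here. Alternatives covered the floor, the probe set summary, scaling, a pseudocount of 32 and a threshold of 1.5-fold. Python 3.11.15, pandas 2.3.3 and numpy 2.4.6 were used.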

Additional observations from a re-analysis of the deposited data

How the results depend on the processing

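No paired analysis was possible because each genotype had 1 array. Under the 7 settings that recompute ratios E2f8 had a log2 ratio between 1.61 and 1.97. Its 1.90 with a floor at the 65th percentile is a bound. E2f7 lay between 0.66 and 1.10, and fell short of 2-fold with a floor at the 65th percentile (0.66, a bound) and with a pseudocount of 32 (0.79), where the count of E2F genes at least 2-fold higher was 1. With no floor E2f4 counted as lower, at -1.27, so that 1 E2F gene was at least 2-fold lower. With the median over probe sets Tfdp2 turned to -0.47; E2f5 went to -0.55 without _x_at, _s_at and _a_at probe sets. Removal of the floor cannot move genes above it in both arrays, E2f7 and E2f8 among them. The probe set choices cannot move E2f7, which has 1 probe set, or E2f8, whose other probe set was under the floor. Genes at least 2-fold higher and lower numbered 1797 and 1772 with no floor, 97 and 123 with the higher floor, and 99 and 129 with the pseudocount; at 1.5-fold they numbered 804 and 819. The median of the G1/S targets was 0.63 both with the median over probe sets and with the pseudocount, and that of the mitotic genes was 0.71 with the pseudocount. Dim signals limit E2f2, E2f4 and the second probe sets most, and without replicate arrays none of these ranges covers biological spread.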
